A study of Mus musculus with 5 samples.

Results

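Promoters of the mouse fetal testis were compared at stage E18.5, in days of gestation, for binding of CREB and for a histone mark on lysine 4 of histone H3 (H3K4), the only stage at which both antibodies were used. The comparison took the peaks of 1 CREB library and 1 H3K4 library, out of 5 libraries in the series, and sorted all 21887 protein-coding genes of the assembled mouse chromosomes (RefSeq GRCm38.p6, in mm10 coordinates) into 4 classes. A gene counted as having CREB or H3K4 when a peak touched the region reaching 1000 bp to each side of one of its ends. The classes held 2698 genes with H3K4 and CREB, 8836 with H3K4 and no CREB, 119 with CREB and no H3K4, and 10234 with neither.

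Both libraries came from dissociated cells of the whole male gonad, 100000 cells per assay, by CUT&RUN, a method that tethers a nuclease to an antibody and releases the DNA around the antibody's target. The labels give the tissue as fetal testis and name no strain, genotype or treatment for any group. They name the H3K4 antibody without a methylation state, so the mark is called H3K4 throughout. Other CREB libraries were made at E13.5 and E16.5, and are used here only to look at the E18.5 classes. Because each group was 1 library, no value has a replicate check and no test between groups was possible. The ranges given with shares are 95% Wilson intervals and cover counting error alone.

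CREB is a leucine zipper transcription factor that binds a palindrome called the cAMP response element (CRE, TGACGTCA) or its shorter core (TGACG, called the short CRE here). Protein kinase A phosphorylates it when cAMP rises, and the phosphorylated form recruits the coactivators CBP and p300. In the testis, luteinizing hormone acts on Leydig cells and follicle-stimulating hormone on Sertoli cells through cAMP. Methylation of H3K4 is laid down by enzymes of the KMT2 and SETD1 families on the nucleosomes that flank active or poised promoters and enhancers.

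The CREB list held 2957 peaks, 2947 of them on assembled chromosomes and each 160 bp wide. The H3K4 list held 21211 peaks, 21202 of them on assembled chromosomes and each 210 bp wide. The files give no score or read count, so depth is unknown and a missing peak does not show that CREB or the mark was absent. Of the markers of the labelled tissue, H3K4 lay at 7 of 14 genes of fetal Leydig cells (Nr5a1, Star and Cyp11a1, but not Cyp17a1 or Insl3), at 9 of 18 of Sertoli cells (Sox9 and Amh, but not Wt1 or Gata4) and at 3 of 18 of fetal germ cells. The first 2 shares, 50% each, were close to the 52.7% of all protein-coding genes. Among markers of other tissues it lay at 2 of 19 hepatocyte genes, 4 of 20 skeletal muscle genes and 6 of 20 neuron genes. These are bulk samples of mixed cells, in which fewer cells of a type and a weaker signal per cell cannot be told apart.

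CREB at a gene end went almost always with H3K4. Of the 2817 genes with CREB, 12.9% of all protein-coding genes, 95.8% also had H3K4, which lay at 11534 genes or 52.7% of the total. CREB was present at 23.4% (22.6 to 24.2) of genes with H3K4 and at 1.15% of genes without it. With 2817 genes with CREB and 11534 with H3K4, CREB could not have lain at most H3K4 genes. The 95.8% and the 23.4% are therefore not compared. Over all genes, 12.3% had both, 40.4% had H3K4 without CREB, 0.544% (0.455 to 0.65) had CREB without H3K4 and 46.8% had neither. Every list of genes below is read against these shares. The members and the lists were chosen by function or symbol, with the shares of some lists already known.

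Genes with both marks lay in denser gene neighbourhoods. Another protein-coding gene ended within 2000 bp of 57.3% of them, against 40% of genes with H3K4 alone and 18.8% of genes with neither. Among genes with H3K4, CREB was present at 30.4% (29.2 to 31.7) of those with such a neighbour and at 17.8% (16.9 to 18.8) of those without one. One CREB peak often served several genes, with 567 of the 2351 peaks at gene ends lying at the ends of 2 or more genes. Where RefSeq promoters gave the strand, CREB lay at the start of the gene rather than its 3′ end in 2187 of 2281 genes with both marks (95.9%). Genes with both marks were also more often marked by 2 or more H3K4 peaks, in 45.7% of cases against 28.1% for H3K4 alone. The class rule counts any peak near a gene end, so peaks of a close neighbour also count. The rule can thereby itself raise the shares with a neighbour and with 2 or more peaks. How far it does so was not tested.

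Promoter sequences with a CRE are shown next. The set was picked to put genes with CREB and H3K4, genes with CREB alone and genes with neither side by side. All come from RefSeq GRCm38.p6, run 5′ to 3′ along the gene and stop at or before the annotated start, and capitals mark the CRE. The first 3 belong to genes with CREB and H3K4. Dusp1, a phosphatase that switches off MAP kinases, has its CRE 143 bases upstream of the start (chr17:26508572-26508651 on the minus strand). Btg2, an antiproliferative gene, has one 166 bases upstream (chr1:134079278-134079357 on the minus strand). Hlf, a clock-controlled leucine zipper factor, has one 9 bases upstream (chr11:90390918-90390962 on the minus strand). CREB midpoints lay 74, 82 and 19 bp from these elements.
Dusp1: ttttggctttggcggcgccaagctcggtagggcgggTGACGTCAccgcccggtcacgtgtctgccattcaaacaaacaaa
Btg2: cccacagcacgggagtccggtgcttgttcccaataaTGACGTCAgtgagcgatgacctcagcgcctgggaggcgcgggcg
Hlf: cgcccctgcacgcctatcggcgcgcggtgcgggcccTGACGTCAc

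Of the 125 promoters of genes with CREB and no H3K4, 6 (4.8%) held a CRE, and some of these are shown. H2-Aa, the alpha chain of the MHC class II molecule I-A, has its CRE 74 bases upstream at chr17:34287854-34287933 on the minus strand, and the CREB midpoint was 5 bp from it. The histone gene H4c1 has a pair of them at chr13:23761250-23761383 on the minus strand, H4c8 has 1 at chr13:23530938-23531017 on the plus strand, and the secretory granule gene Scg2 has 1 at chr1:79440051-79440130 on the minus strand. The nearest H3K4 midpoint was 21869 bp from the H2-Aa element, 4214 bp from the nearer H4c1 element, 4227 bp from that of H4c8 and 141362 bp from that of Scg2. CREB midpoints were 105, 98 and 125 bp from the elements of H4c1, H4c8 and Scg2. The elements of these genes therefore lay outside the 160 bp CREB peaks. Not shown are Hs3st3a1, with an H3K4 midpoint 355646 bp from its CRE, and Aptx, with one only 262 bp away. The Aptx element lies 17 bases upstream of a start inside the gene, which the class rule does not read.
H2-Aa: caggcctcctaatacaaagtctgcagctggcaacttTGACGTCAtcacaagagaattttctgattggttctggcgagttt
H4c1: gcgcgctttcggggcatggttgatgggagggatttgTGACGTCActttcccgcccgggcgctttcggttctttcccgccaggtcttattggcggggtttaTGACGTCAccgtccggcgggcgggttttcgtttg
H4c8: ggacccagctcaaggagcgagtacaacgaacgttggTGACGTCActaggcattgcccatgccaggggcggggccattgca
Scg2: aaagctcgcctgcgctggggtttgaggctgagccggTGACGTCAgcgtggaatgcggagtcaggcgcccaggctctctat

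A full CRE was also present where CREB was not. Sst (somatostatin, the gene in which the CRE was first described) at chr16:23890849-23890928 on the minus strand, Th (tyrosine hydroxylase, of catecholamine synthesis) at chr7:142899997-142900076 on the minus strand and Areg (the EGF receptor ligand amphiregulin) at chr5:91139502-91139581 on the plus strand had neither mark. Their elements lie 48, 45 and 61 bases upstream, in the same stretch as those above. The nearest CREB midpoint was 97891, 169155 and 773115 bp away. Creb5, a CREB-family factor with H3K4 and no CREB, has its CRE 45 bases upstream at chr6:53287222-53287301 on the plus strand, and the nearest H3K4 midpoint lay 259 bp from it.
Sst: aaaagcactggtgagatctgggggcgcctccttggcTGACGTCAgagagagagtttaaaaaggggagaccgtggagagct
Th: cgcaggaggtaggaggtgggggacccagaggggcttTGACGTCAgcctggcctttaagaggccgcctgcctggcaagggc
Areg: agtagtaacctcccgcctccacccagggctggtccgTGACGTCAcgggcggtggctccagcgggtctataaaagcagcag
Creb5: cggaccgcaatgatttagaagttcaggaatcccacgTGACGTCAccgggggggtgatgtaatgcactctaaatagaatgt

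Across all promoters with a full CRE, presence of H3K4 went with presence of CREB. RefSeq gave 21263 promoters, each 300 bases from 250 upstream to 50 downstream of a start, for 17492 of the 21887 genes, and 475 (2.23%) held a CRE. A CREB peak overlapped 243 of these 475 (51.2%, 46.7 to 55.6). With an H3K4 peak within 1000 bp of the start the share was 238 of 387 (61.5%, 56.6 to 66.2), and without one it was 5 of 88 (5.68%, 2.45 to 12.6). Over promoters of any sequence the shares were 19.3% of 11702 with H3K4 and 0.858% of 9561 without it. Promoters that share a gene or a peak are not independent, and no test was made of these shares.

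Among genes with H3K4, promoters with CREB held the CRE, the short CRE and the CCAAT box more often than promoters without it. The full CRE stood in 8.54% (7.56 to 9.62) of promoters of genes with both marks, 4.8% (2.22 to 10.1) of those with CREB alone, 1.43% (1.2 to 1.71) of those with H3K4 alone and 1.07% (0.881 to 1.29) of those with neither. The short CRE, which also counts each full CRE, stood in 52%, 42.4%, 23.8% and 14.9%, against 23.6% of all promoters. The CCAAT box (CCAAT, bound by NF-Y) was in 49.5%, 50.4%, 34.2% and 38.3%, against 38.2% of all. All motifs were searched on both strands as exact letters.

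The GC box, ETS motif and TATA box set the genes with neither mark apart from the genes with both. The GC box (GGGCGG, bound by Sp1) was in 67.6% of promoters with both marks, 66.4% with CREB alone and 63.2% with H3K4 alone, but in 24.5% with neither (46.2% of all). The ETS motif (CCGGAAG) was in 20% with both marks, 15.7 to 17.3% (interval) with H3K4 alone, 8% (4.4 to 14.1) with CREB alone and 4.72% with neither (11.6% of all). A TATA box (TATAAA) was in 6.07%, 7.06%, 12% (7.41 to 18.9) and 19.5% of promoters with both, H3K4 alone, CREB alone and neither (12.6% of all). For the 125 promoters of genes with CREB alone, the intervals of the CRE (2.22 to 10.1) and the CCAAT box (41.8 to 59) held the shares of genes with both marks. Their intervals for the short CRE (34.1 to 51.2) and the ETS motif lay below those shares, and that for the TATA box above. Without coding neighbours within 2000 bp these intervals were 35.6 to 57.9, 3.82 to 16.8 and 6.62 to 21.8. They then held the shares of genes with both marks (54.6%, 16.6% and 7.19%). Where CREB overlapped the promoter itself, the short CRE interval without H3K4 (44.1 to 65.2) held the 62.1% with H3K4. The intervals for the ETS motif and TATA box still lay outside there.

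**Figure D1:**
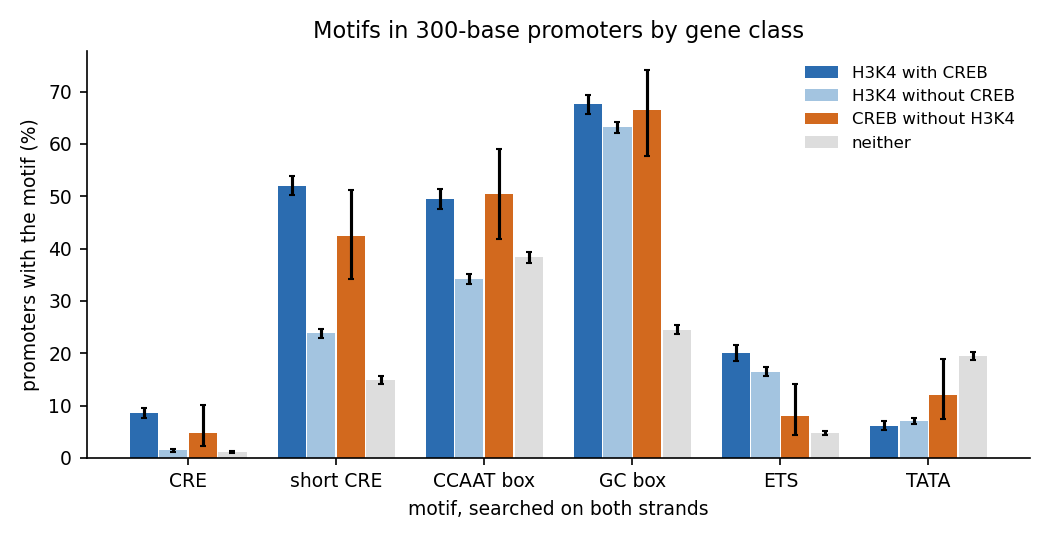
Bars give the percentage of promoters (300 bases, RefSeq) holding each motif on either strand, by gene class, with 95% Wilson intervals for counting error. The CRE and short CRE are highest where CREB is present, while the GC box is near 65% in all 3 classes with a mark and 24.5% in the class with neither.

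The CRE share differed between genes with both marks and genes with H3K4 alone also at like CpG content. Their promoters had a median of 22 and 20 CpG dinucleotides and a median GC content of 60.7% and 61.3%, while genes with neither had 4 CpG and 50%. Among promoters with 20 to 29 CpG the CRE stood in 10.9% (9.16 to 12.8) with both marks and 1.61% (1.18 to 2.19) with H3K4 alone. Among those with 9 or fewer it stood in 2.48% (1.26 to 4.83) and 0.663% (0.38 to 1.16). In promoters overlapped by CREB, the nearest CREB midpoint was a median of 61 bp from a CRE, 60 bp from a CCAAT box and 67 bp from a short CRE. It was 86 bp from a GC box, 109 bp from a YY1 motif (AAGATGGC) and 113 bp from a TATA box.

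Cyclic AMP target genes and the CREB family had both marks more often than genes at large. Of 35 genes known as cAMP-induced CREB targets, 12 had both marks, 10 had H3K4 alone, 2 had CREB alone and 11 had neither, so that 40% had CREB (25.6 to 56.4) against 12.9% of all genes. Those with both include the immediate early factors Egr1 and Fos, the clock gene Per1, cyclin A2 (Ccna2), the CREB-related modulator Crem and Dusp1. At Fos the CREB peak (chr12:85473645-85473804) was centred 166 bp from the start and 8 bp from an H3K4 midpoint. At Egr1 the midpoints were 49 bp apart, and at Per1 613 bp apart with H3K4 on the transcribed side.

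The Fos promoter is shown because its elements are short CREs (chr12:85473725-85473864 on the plus strand). Capitals mark TGACG, at 129 and 66 bases upstream.
Fos: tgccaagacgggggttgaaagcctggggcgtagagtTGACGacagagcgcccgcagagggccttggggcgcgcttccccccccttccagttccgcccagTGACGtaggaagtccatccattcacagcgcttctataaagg

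Nr4a1, an orphan nuclear receptor induced by cAMP and by luteinizing hormone, was classed with H3K4 and no CREB, because the class rule reads only the outer ends of a gene. Its annotated gene runs from chr15:101253902 to 101274795, and RefSeq gives a further start inside it. The stretch upstream of that start (chr15:101266596-101266845, plus strand) holds 4 short CREs, here in the reverse form CGTCA. A CREB peak overlapped the stretch, with its midpoint 8 bp from 1 of them. The H3K4 midpoint nearest to the short CREs was 565 bp from 1 of them.
Nr4a1: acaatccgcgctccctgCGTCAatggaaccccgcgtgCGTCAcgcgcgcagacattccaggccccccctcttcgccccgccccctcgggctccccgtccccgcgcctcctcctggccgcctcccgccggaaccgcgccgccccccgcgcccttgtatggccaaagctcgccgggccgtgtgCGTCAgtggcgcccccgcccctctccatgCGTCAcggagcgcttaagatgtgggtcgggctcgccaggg

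Starts inside genes moved other genes between classes too. When any RefSeq start was used in place of the outer ends, 61 of the 6965 genes with H3K4 alone and a known promoter gained CREB and kept H3K4, and 139 genes with neither gained both marks. Conversely, 77 genes with both marks kept H3K4 and lost CREB under that rule. The totals were 2362 genes with both, 7540 with H3K4 alone, 76 with CREB alone and 7514 with neither, out of 17492.

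Of the 21 genes of the CREB and ATF family, 8 had both marks (Creb3l2, Crem, Atf5, Atf6b, Crebl2 and Creb1 among them), 9 had H3K4 alone and 4 had neither. At Creb1 itself the CREB midpoint was 110 bp from the gene end and the H3K4 midpoint 820 bp farther upstream. The coactivators and kinases of the pathway differed in share: 3 of 20 had both (the protein kinase A subunits Prkar1b and Prkaca, and Sik1, a kinase that restrains CREB coactivators), 15 had H3K4 alone and 2 had neither. Their CREB share of 15.0% (5.24 to 36) was near the 12.9% of all genes. Ep300 and Crtc2, which are CREB coactivators, were among those with H3K4 alone.

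The highest CREB shares were in sterol metabolism and in protein folding. Of 24 genes of cholesterol synthesis and uptake, 15 had both marks, 7 had H3K4 alone and 2 had neither, a CREB share of 62.5%. Those with both include Hsd17b7, Srebf2 (the sterol-sensing transcription factor), Idi1, Hmgcs1 and Cyp51. At Idi1 the CREB midpoint was 73 bp from the gene end and 335 bp upstream of the H3K4 midpoint, and at Srebf2 these distances were 262 and 1260 bp. Steroid hormone synthesis, which uses cholesterol as substrate, had both marks at 2 of 18 genes, Fdxr and Srd5a1. H3K4 alone marked Tspo, Scarb1, Fdx1, Cyp11a1 and Star, which import cholesterol or start its conversion, and 11 genes, Cyp17a1 among them, had neither.

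Of 24 genes of the unfolded protein response, 15 had both marks, 6 had H3K4 alone and 3 had neither. The members with both include the sensor Eif2ak3, the transcription factor Xbp1 and the chaperones Dnajb11, Hsp90b1, Dnajb9 and Hspa5. The Hspa5 promoter (chr2:34771897-34771973 on the plus strand) is shown for its short CRE, in capitals, 157 bases upstream of the start, from which the CREB midpoint was 7 bp away.
Hspa5: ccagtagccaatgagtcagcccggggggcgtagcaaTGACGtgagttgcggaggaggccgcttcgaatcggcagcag

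Chaperonin and heat shock genes had both marks at 19 of 36 (52.8%), Cct6a, Hspa8 and Hspa14 among them, and at 14 had H3K4 alone. Over all protein-coding genes 12.3% had both. Autophagy genes had both at 16 of 35, or 45.7% (Nbr1, Uvrag, Atg12). Atg7, an E1-like enzyme of the pathway, had CREB alone, centred 731 bp past its 3′ end and not at its start. Citric acid cycle genes had both at 10 of 20, or 50% (29.9 to 70.1), Ogdh and Fh1 among them. The glycolysis list, which includes the pyruvate dehydrogenase gene Pdhb, had both at 4 of 20 (Pdhb, Gapdh, Hk2, Pgk1) and H3K4 alone at 12. Its CREB share of 20% (8.07 to 41.6) had an interval that held the 12.9% of all genes and overlapped that of the citric acid cycle. Among its H3K4 genes the share was 25%, near the 23.4% of all genes with H3K4. DNA repair genes had both at 18 of 40, or 45% (Brca1, Xrcc3). Genes of DNA replication and the cell cycle had both at 13 of 40, or 32.5% (Gins2, Pcna, Ccna2), and Mcm2 of the replicative helicase had CREB alone. Clock genes had both at 7 of 19, or 36.8% (Per1, Cry2, Nr1d2), and Cry1 had CREB alone.

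Families of the basic cell machinery were nearly all marked by H3K4 and differed in CREB. In 12 such families with 632 genes, 89.2% had H3K4 (86.6 to 91.4) and 33.9% of those had CREB (30.1 to 37.9), against 23.4% over all genes with H3K4. Cytosolic ribosomal proteins had both marks at 38 of 84 (Rpl13a, Rps29, Rpl41), and splicing factors at 31 of 82 (Hnrnpa1, Prpf38a, Snrpa). Mitochondrial ribosomal proteins had both at 16 of 78, the respiratory chain at 21 of 97 and RNA polymerase subunits at 4 of 28, although H3K4 lay at all 28 of the last. Among their H3K4 genes the CREB shares of these 3 families were 23.2%, 25.6% and 14.3%, near or under the 23.4% of all genes with H3K4.

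Genes that define the cell types of the gonad lacked CREB. In 8 lists of markers with 130 genes in all, 51 had H3K4 alone, 78 had neither, 1 had CREB alone and 0 had both. Among their 51 genes with H3K4 the CREB share was 0 (upper bound 7.0%), against 23.4% over all genes with H3K4. H3K4 without CREB lay at Nr5a1, Lhcgr, Cyp11a1 and Star (the steroidogenic regulator, the luteinizing hormone receptor, and the enzyme and transporter that start steroid synthesis), at Sox8, Sox9, Dhh and Amh of Sertoli cells, and at Dazl of germ cells. Insl3, the Leydig hormone of testis descent, and Ddx4, a germ cell helicase, had neither, with the nearest H3K4 midpoint at 12726 and 8202 bp.

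The single marker gene with CREB was Maf, a leucine zipper factor of interstitial progenitors, and its peak was centred 1038 bp from the gene end. It was lost with ends of 500 bp, and Maf could not be read by its start because its strand is not known here. Gene ends of 2500 bp gave 3 marker genes with CREB. Several transcription factors of the gonad had no H3K4 peak at an end either. The nearest H3K4 midpoint was 5222 bp from Gata4, 14590 bp from Nr2f2 and 109364 bp from Wt1, 3 genes chosen after their values were seen.

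Developmental and cell surface families had CREB at few of their H3K4 genes. In 7 developmental families with 198 genes, 67 had H3K4 alone, 6 had both and 1 had CREB alone, and CREB lay at 8.22% of those with H3K4 (3.82 to 16.8). The 39 Hox genes, which set position along the body axis, had H3K4 alone at 12 and neither mark at 27. In 6 families of surface proteins and channels, 136 of 292 genes had H3K4 alone and 3 had both, so CREB lay at 2.16% (0.737 to 6.15) of their H3K4 genes. Clustered protocadherins, which share 3′ ends and so share peaks there, had H3K4 alone at 28 of 57. Polycomb genes, whose products repress developmental genes, had both at 4 of 28 (Cbx8, Ring1, Rbbp7, Rbbp4) and H3K4 alone at 18. Polycomb genes had CREB at 14.3% of members and at 18.2% (7.31 to 38.5) of those with H3K4, against 12.9% and 23.4% over all genes, and H3K4 at 78.6% against 52.7%.

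Several large families of chemosensory receptors, skin proteins and secreted proteins were nearly empty of both marks. In 9 such families with 1737 genes (olfactory, vomeronasal, bitter taste and trace amine receptors, keratin-associated and cornified envelope proteins, defensins, major urinary proteins, and pregnancy-specific glycoproteins with prolactins), 1733 had neither, 3 had H3K4 alone and 1 had both. Olfactory receptors had neither at 1107 of 1110, the exceptions being Olfr1098, Olfr94 and Olfr1373. The single gene of these families with CREB was the vomeronasal receptor Vmn1r4, where CREB and H3K4 midpoints were 38 bp apart. Other secreted families had H3K4 more often, at 12 of 59 interleukins and interferons, 5 of 37 chemokines, 7 of 63 serpins and 2 of 27 kallikreins, with CREB at 1, 1, 1 and 0 of them. Among late genes of sperm formation, 24 of 28 had neither mark, and Gapdhs, Catsper2 and Odf2 had both.

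**Figure D2:**
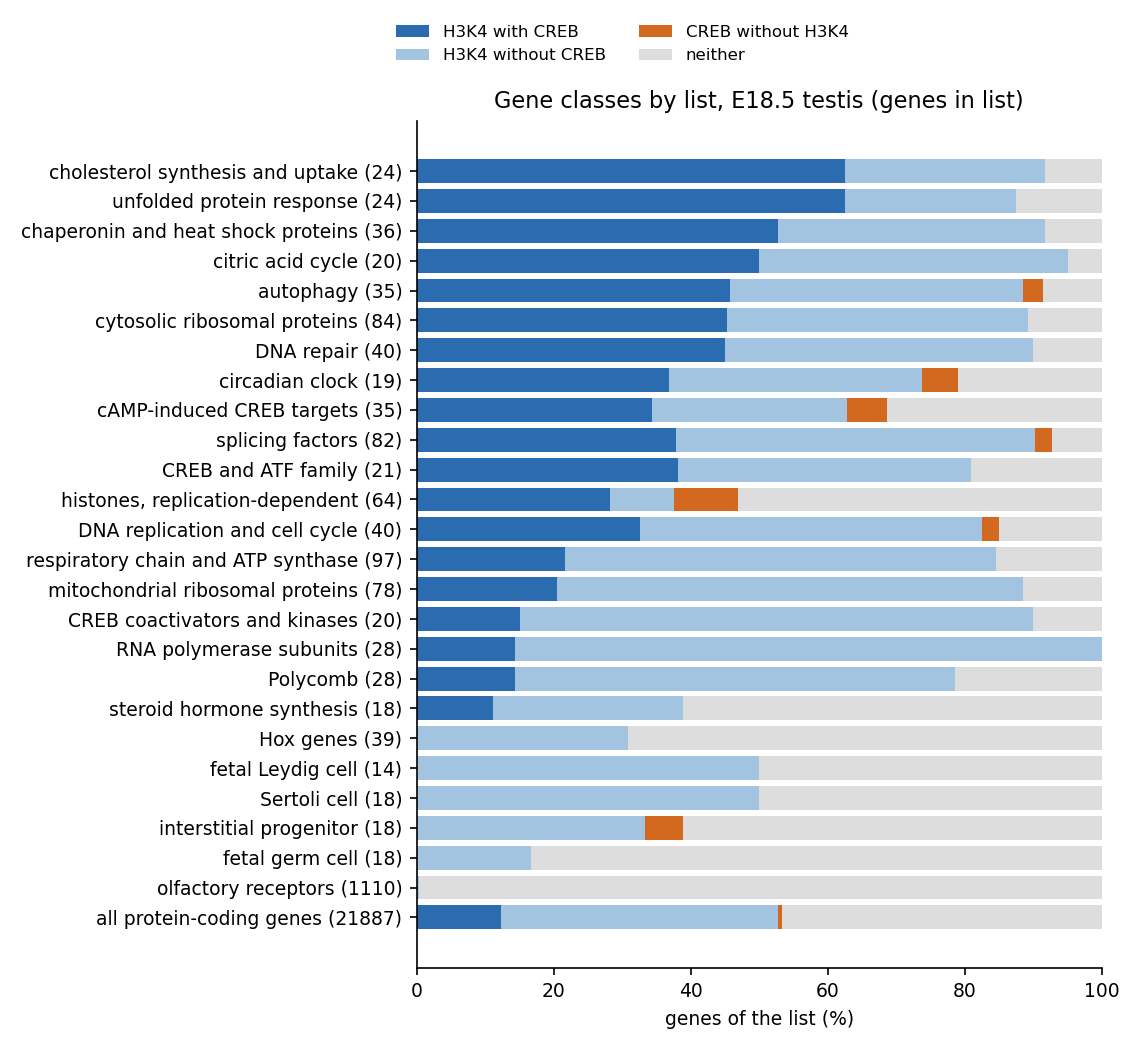
Each bar splits a gene list, or all protein-coding genes, by class in percent of its genes, with the number of genes in brackets. CREB is present at 62.5% of cholesterol and of unfolded protein response genes and at 12.9% of all genes, while Leydig, Sertoli and germ cell lists hold 0 genes with CREB.

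The place of a gene in the H3K4 list also went with CREB. The order of peaks in the file is not explained, and peaks carry no score. H3K4 genes were divided by 10 equal parts of the list, each placed by the earliest of its H3K4 peaks at an end. The share with CREB was 36.3% (34.2 to 38.4) in the first part, 10.8% at positions 12727 to 14847 and 0.446% (0.123 to 1.61) in the last. Genes with both marks more often had 2 or more H3K4 peaks (45.7% against 28.1% with H3K4 alone). Placing by the earliest peak can by itself move such genes to earlier parts, and how far was not tested. Among list positions 1 to 10605 the 12 basic families had CREB at 33.9% (29.8 to 38.2) of H3K4 genes, close to the 30.3% (29.2 to 31.3) of all genes there. At later positions they had it at 33.8% (24.3 to 44.6), against 11.7% (10.7 to 12.7). The gonad markers lay mostly at later positions, 38 of 51, and had CREB at 0 of 13 and 0 of 38.

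Sterol and protein folding genes were above the background among early positions too. Cholesterol genes at positions 1 to 10605 had CREB at 14 of 19 (73.7%, 51.2 to 88.2), and genes of the unfolded protein response at 11 of 15 (73.3%, 48 to 89.1). Both intervals lay above the 30.3% of all H3K4 genes there. The part that list order plays in the other shares was not tested.

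**Figure D3:**
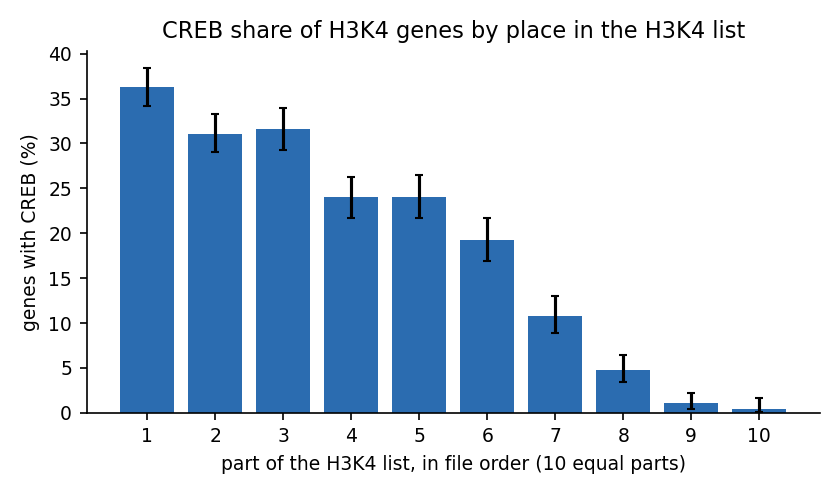
Bars give the percentage of genes with H3K4 that also had CREB, by 10 equal parts of the H3K4 list in file order, with 95% Wilson intervals for counting error. Each gene was placed by the earliest of its H3K4 peaks at an end, which favours earlier parts for genes with several peaks. The share falls from 36.3% in the first part to 0.446% in the last.

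The 119 genes with CREB and no H3K4 at an end fell into groups by how far H3K4 was. They carried 114 CREB peaks, of which 9 also served a gene with H3K4. For 79 genes (66.4%) an H3K4 midpoint lay within 2500 bp of the CREB midpoint, for 18 it lay beyond that and up to 10000 bp, and for 22 it lay farther. Where CREB was at the start of 1 of the 79, H3K4 lay downstream in 52 of 60 (86.7%, 75.8 to 93.1). In genes with both marks, the nearest H3K4 was downstream of CREB in 1312 of 2187 (60%, 57.9 to 62). The class rule leaves genes with CREB alone only H3K4 peaks outside the window. These shares are therefore at unlike distances and are not compared.

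The earliest of the 119 in the CREB list were mostly of the near kind. At Zswim6, a zinc finger gene, CREB lay at chr13:107890181-107890340, 196 bp from the gene end, and the H3K4 midpoint was 1100 bp away on the upstream side. At Fosb, an immediate early partner of Jun, CREB lay at chr7:19310120-19310279, with H3K4 1595 bp downstream. The RNA-processing genes Zc3h4 (chr7:16399631-16399790), Pcf11 (chr7:92669996-92670155), Tra2b (chr16:22265928-22266087), Smg1 (chr7:118243759-118243918) and Prrc2a (chr17:35165082-35165241) had H3K4 midpoints 1959, 1316, 1133, 902 and 1107 bp downstream of CREB. DNA topoisomerase I (Top1, chr2:160645763-160645922) had it 1308 bp downstream.

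At other early genes CREB lay near the border of the window. CREB was 946 bp from the end of Gpr108 (chr17:57247718-57247877), 981 bp from that of Slc25a41 (chr17:57031712-57031871), 775 bp from that of Tssc4 (chr7:143069112-143069271) and 745 bp from that of BC005537 (chr13:24800833-24800992). H3K4 midpoints were 527, 1003, 447 and 377 bp from the CREB midpoint there, outside the window of the gene but beside the peak. At Fem1c (chr18:46525982-46526141) H3K4 was 1427 bp away. The width of the window set the class of these genes and of those named in the paragraph before. Their nearest H3K4 midpoints lay between 1122 bp (BC005537) and 2086 bp (Zc3h4) from a gene end.

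Histone genes stood out in the middle group. H4c1 (chr13:23761369-23761528) had H3K4 4383 bp away, and H1f1 and H3c1, which shared the peak chr13:23762511-23762670, had it 5525 bp away. In all, 6 of 64 replication-dependent histone genes (H4c1, H1f1, H3c1, H2ac8, H2bc8, H4c8) had CREB alone, or 9.38% against 0.544% of all genes, and 18 had both. They lie in clusters, so neighbours share peaks. Near-identical histone copies may also be hard to tell apart by read mapping. The DNA damage adaptor Mdc1 (chr17:35841315-35841474) had H3K4 4100 bp upstream.

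The 22 genes with H3K4 more than 10000 bp from CREB were Irf2bp2, Plekhh3, Klf13, Gsk3b, Ankrd50, Fosl2, H2-Aa, Maf, Tsc22d2, Hs3st3a1, Sox11, Atg7, Vgll4, Arhgef17, H2-DMb1, Nptx2, Nrn1, Gm52006, Zfp36l1, Tle1, Tmem30c and Scg2. The earliest were Irf2bp2 (chr8:126594582-126594741), an interferon factor corepressor, with H3K4 10298 bp away. Plekhh3 (chr11:101171411-101171570) followed with 15419 bp and the Krueppel-like factor Klf13 (chr7:63939050-63939209) with 41931 bp. At Atg7, Vgll4 and Gm52006 CREB lay at the 3′ end. Atg7 and Vgll4 shared 1 peak, as did Gm52006 and Zfp36l1. Of these 22 genes, 19 had CREB at E16.5 and 3 at E13.5, in libraries that the classes did not use. Of all 119 genes with CREB alone, 97 (81.5%) had CREB at E16.5 and 32 (26.9%) at E13.5. Nptx2, Nrn1 and Scg2, which act at synapses or in secretory granules, had H3K4 187693, 155890 and 141487 bp away and CREB at E16.5 but not at E13.5.

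MHC class II genes present peptides to helper T cells, and their promoters are known to bind RFX, CREB and NF-Y together. Some of them were among the genes with CREB and no H3K4, a class that held 0.544% of all genes. The group of 11 class II genes was put together after the values were seen, so its counts are a description only. H2-Aa, H2-Eb1, H2-DMa and H2-DMb1 had CREB alone, H2-Ab1 had both, and H2-Eb2, H2-DMb2, H2-Oa, H2-Ob, the invariant chain Cd74 and the class II transactivator Ciita had neither. The CREB midpoints of the 5 were 75, 142, 95, 94 and 78 bp from the gene ends, H2-Ab1 last. The nearest H3K4 midpoint was 21864, 4037, 3824, 17406 and 253 bp from them. All 5 genes lie on chromosome 17. Inside the gene, away from its ends, H2-Eb1 had 1 H3K4 peak and H2-DMa had 2. At E16.5 CREB was listed at 4 of these 5, all but H2-Aa, and at E13.5 at H2-Aa and H2-Eb1.

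MHC class I genes and their helpers, also grouped after the values were seen, differed in H3K4. Of 9, H2-K1, H2-D1, B2m, Tap1, Psmb8 and Psmb9 had both marks and Tap2, Tapbp and Nlrc5 had H3K4 alone. Tap1 and Psmb9 share 1 CREB peak. Macrophages and other blood cells express class II genes, and the list of their markers had H3K4 at 4 of 18 (Spi1, Tyrobp, Lyz2, Itgam), with the defining markers Adgre1 and Csf1r without a peak, and CREB at 0. Their part in the class II pattern was not tested.

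The CREB and H3K4 midpoints were close but seldom coincident. From each of the 2947 CREB midpoints the nearest H3K4 midpoint was a median of 278 bp away (95% interval 267 to 288, quartiles 134 and 531). Some H3K4 midpoint was no farther than 1000 bp from 88.3% (87.1 to 89.4) of CREB peaks, and the peaks overlapped at 33.1% (31.4 to 34.8). The widths of 160 and 210 bp let peaks overlap when midpoints are closer than the mean width, and the median gap between nearest edges was 93 bp. H3K4 was over 5000 bp away for 5.26% of CREB peaks. The number of CREB peaks fell from 339 at 0 to 49 bp to 215 at 100 to 149 bp, rose to 265 at 250 to 299 bp and fell to 133 at 350 to 399 bp.

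CREB peaks away from gene ends were farther from H3K4. For the 2351 at a gene end the median was 266 bp and 93.5% had H3K4 within 1000 bp, while for the 596 others the median was 372 bp (upper quartile 2744) and 67.6% had it. Of the CREB peaks, 25% (736) were flanked by H3K4 midpoints on both sides within 1000 bp. The flanking H3K4 midpoints were then a median of 885 bp apart (quartiles 706 and 1053). CREB lay at 40 to 60% of the span in 23.6% and within 10% of either end of it in 15.9%.

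**Figure D4:**
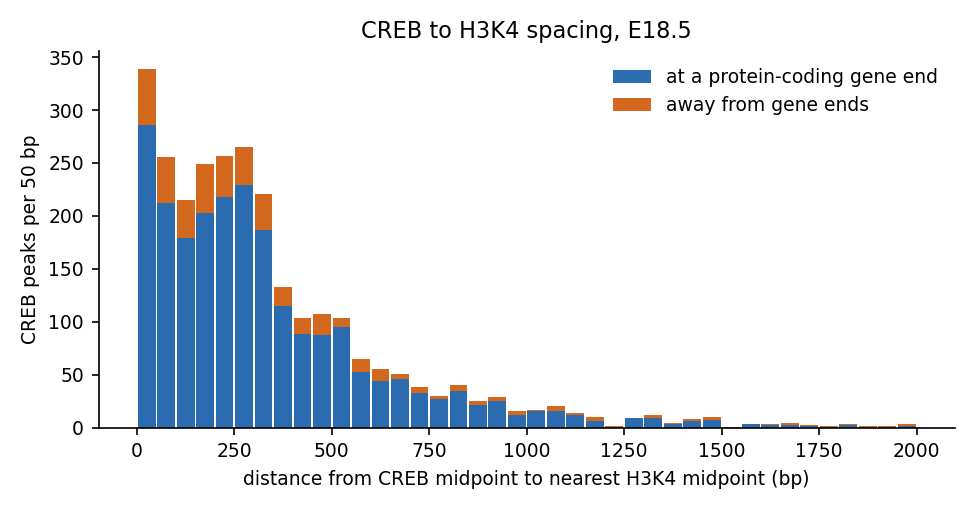
The bars count CREB peaks by distance from their midpoint to the nearest H3K4 midpoint in steps of 50 bp, stacked by whether the CREB peak lay at a protein-coding gene end. The counts are highest below 50 bp (339), with a second rise at 250 to 299 bp (265), and distances over 2000 bp are not drawn.

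Named examples show both extremes. At Zfp1 and Cwc25 the midpoints coincided. At Ncapg2 (a condensin subunit), the divergent pair Cops5 and Cspp1, Fbxo5 and Polb (a repair polymerase) they were 1 bp apart. Ap1m1 was also at 1 bp, and Cdc14b, the pair Orc6 and Vps35, and the pair Pask and Ppp1r7 were at 2 bp. At the other extreme within 1000 bp, the distance was 1000 bp at Ube2h, 992 bp at Eif4ebp2 (a translation repressor), 980 bp at Nadk2, 978 bp at Gabarap and Phf23 and 965 bp at Hspa8. Oaz1, a regulator of polyamines and the first gene of the CREB list, had 184 bp. Among genes with both marks 62 of 2698 had the midpoints more than 1000 bp apart, and 6 more than 2000 bp (Msh5, Pdyn, Zbtb22, Zcchc3, Zfp36 and Znrd2, named after their values were seen).

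Around annotated starts, CREB sat upstream and H3K4 mainly on the transcribed side. Over the 2187 genes with both marks and CREB at the start, the CREB midpoint was a median of 62 bp upstream (quartiles 136 upstream and 42 downstream), and for the 88 genes with CREB alone 78 bp upstream. At 2264 starts with a CREB peak in the 300-base promoter and H3K4, 60.2% of H3K4 midpoints within 1000 bp lay downstream, with a median of 108 bp downstream. At 9438 starts with H3K4 and no CREB, 67.6% lay downstream, with a median of 179 bp. The dip in H3K4 just upstream of the start, where CREB was most frequent, was seen with and without CREB. In the 100 bases upstream there were 4.33 H3K4 midpoints per 100 starts with CREB and 5.21 without, against 11.8 and 11.1 in the 100 bases before those.

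H3K4 midpoints fell into several rises along the start region, at the same places in both kinds of start. Per 100 starts and 50 bp there were 5.96 with CREB and 5.68 without at 150 to 101 bp upstream, and 9.05 and 7.63 at 50 to 99 bp downstream. Values at 300 to 349 bp downstream were low, at 2.12 and 2.77, and rose to 6.27 and 7.24 at 400 to 449 bp. Between 50 and 1 bp upstream the count was 1.33 with CREB and 2.54 without. The level upstream was higher at starts with CREB, at 3.8 against 2.55 at 300 to 251 bp upstream, where neighbouring genes are also more frequent.

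**Figure D5:**
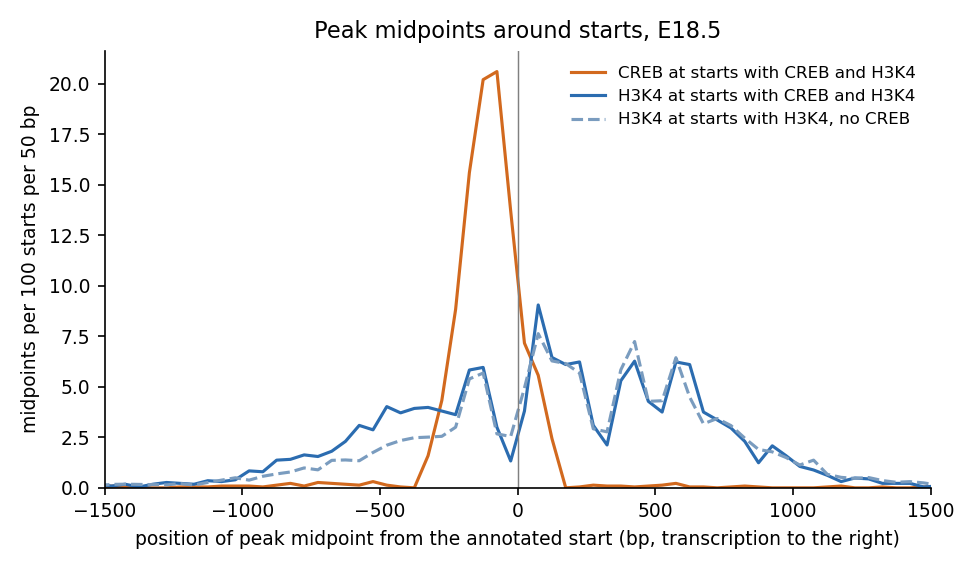
Lines give peak midpoints per 100 annotated starts in steps of 50 bp, with transcription to the right, for CREB and H3K4 at starts with both and for H3K4 at starts without CREB. CREB reaches 20.6 at 100 to 51 bp upstream, where both H3K4 lines are low, and the CREB line is limited by the choice of starts with CREB between 250 bp upstream and 50 bp downstream.

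The CREB libraries of the other stages, which did not enter the classes, were read at the same genes. At E16.5 CREB lay at 86.6% (85.3 to 87.9) of genes with both marks and at 81.5% (73.6 to 87.5) of genes with CREB alone. At E13.5 it lay at 30.4% (28.7 to 32.2) and 26.9% (19.7 to 35.5). The intervals of the classes overlapped at both stages. At genes with H3K4 alone CREB was listed at 8.74% at E16.5 and at 0.113% at E13.5, and at genes with neither at 0.645% and at 0 of 10234. The peaks of E16.5 are 630 bp wide and those of E13.5 150 bp, and the lists differ in length (3528 and 862 peaks), so the stages are not compared with each other. Egr1 had CREB at E18.5 only, while Fos, Per1, Idi1, Srebf2, Hspa5, Oaz1 and Dusp1 had it at all 3 stages.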

How the data were processed

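Gonadal cells of male mouse fetuses were filtered at 70 µm and assayed by CUT&RUN, per the labels' protocols. The authors deposited peak lists that hold chromosome, start and end and no score, count or other unit. Reads were handled with Trim Galore 0.6.10, Bowtie2 2.5.2 and MACS2 on build mm10, per the submitters' processing notes. Which settings and control the peak caller used is not given in the sources used here. The IgG library, whose title and other labels name different stages, was not analysed here.

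Genes came from a RefSeq table of GRCm38.p6. Strand came from RefSeq promoters, known for 17492 of 21887 protein-coding genes. A peak counted at a gene with an overlap of at least 1 bp with 1000 bp either side of either end. Distances run between midpoints, and positions are 1-based. Motifs were exact letters on both strands. Intervals are 95% Wilson intervals, and medians carry order-statistic intervals. The class code was tested on simulated data. Members and the 87 gene lists (27 by symbol, 60 by symbol pattern, 621 of 624 symbols found) were chosen with earlier results of these data known. Named are up to 6 members of each list by place in the CREB or H3K4 file or alphabetically, all genes with CREB and no H3K4, with coordinates for the earliest 20, the 10 closest and 10 farthest spacings within 1000 bp, and 20 genes fixed by name. Some genes that this rule selects are not reported here. Genes printed for their promoter, the MHC lists and the table of starts were added after seeing the data. Calculations used Python 3.11.15, numpy 2.4.6, pandas 2.3.3, scipy 1.17.1 and matplotlib 3.10.9. Alternatives are given in the closing section.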

Additional observations from a re-analysis of the deposited data

Results flagged for a closer look

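Peaks on scaffolds outside the assembled chromosomes entered no comparison. The E18.5 CREB list held 10 such peaks on 5 scaffolds and the H3K4 list 9 on 5 scaffolds, each above the limit of 3 that a count of 0 allows. The lists shared 1 scaffold, and H3K4 midpoints were within 1000 bp of 2 of the CREB peaks.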

How the results depend on the processing

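Depth is unknown, each group holds 1 library, and peak order is unexplained, so intervals cover counting error only and a gene called without a mark may lie under the calling limit. No paired analysis was possible because each group holds 1 library. The class with CREB alone depended most on the rule. It held 119 genes, 387 with gene ends of 500 bp, 58 with 2500 bp, 73 among genes with no coding neighbour within 2000 bp, 457 with positions 1 to 10605 of the H3K4 list alone, 27 when H3K4 had to be absent within 5000 bp of CREB, 48 when it had to be absent from the gene body, and 76 with any RefSeq start, an alternative chosen after seeing the data. Among genes without a coding neighbour 1151 had both marks and 5302 had H3K4 alone, and with positions 1 to 10605 of the H3K4 list alone 5443 had H3K4 alone. The other class counts stayed within 1.5 times the main value under every alternative.

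The median spacing of 278 bp was 266 bp at gene ends, 372 bp away from them, 93 bp between edges and 406 bp with positions 1 to 10605 of the H3K4 list alone. The share within 1000 bp was then 93.5%, 67.6% and 72.4% (positions 1 to 10605), and the overlap 28% away from ends and 24.6% with those positions. CREB genes among the gonad markers numbered 0 with 500 bp, 3 with 2500 bp and 0 with starts only, a setting that reads the 87 markers of known strand and leaves out Maf, and those in the 12 basic families 75 without neighbours, where fewer genes were read. In genes with both marks the CRE share was 9.72% without neighbours and 10.5% where the peak overlapped the promoter itself, and the short CRE share 54.6% and 62.1%. At H3K4 without CREB the short CRE share was 24.7% in the latter. Of 348 list counts under 4 alternatives, 273 stayed within 1.5 times the main count. These include counts that stayed at 0, since 26 of the lists had no gene with CREB. Of the 75 counts beyond that limit, 51 came from the setting without neighbours, which reads fewer genes. The causes were not tested.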

Other observations

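A list of neuroendocrine and neuronal genes, grouped after their values were seen, was mostly without either mark. Over all protein-coding genes 46.8% had neither and 0.544% had CREB alone. As the list was chosen with these values known, its counts are a description only. Of 18, 13 had neither (Sst, Vip, Chga, Chgb, Th and Cartpt among them), Scg2, Nptx2 and Nrn1 had CREB alone, Penk had H3K4 alone, and Pdyn had both, with CREB and H3K4 midpoints 11841 bp apart. Pcsk1, a prohormone protease with a CRE 78 bases upstream, had no CREB peak within 319103 bp of the element and an H3K4 midpoint 792 bp from it.

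The X chromosome held 2.37% of genes with both marks, 3.76% of genes with H3K4 alone, 0.84% (1 gene, Hcfc1) of genes with CREB alone and 5.56% of genes with neither, against 4.41% of all genes. Median gene length was 18756 bp with both marks, 25482 bp with H3K4 alone, 19409 bp with CREB alone and 10505 bp with neither.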
